A study of Mus musculus with 6 samples.

Results

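The genes described are 10 enzymes of serine synthesis and folate-dependent one-carbon metabolism: Phgdh, Psat1 and Psph, which make serine; Shmt1, Mthfd1 and Aldh1l1 of the cytosolic folate arm; and Shmt2, Mthfd1l, Mthfd2 and Aldh1l2 of the mitochondrial folate arm. They were named as a pathway, and each was read from a probe set annotated to that symbol alone; all 10 had exactly 1 such probe set among the 19733 genes tested. Expression was profiled on 6 Affymetrix arrays of mouse bone marrow pre-B cells, the precursors of B lymphocytes, that carry floxed alleles of Ppp2r1a (encoding the PP2A scaffold, where PP2A is protein phosphatase 2A) and express the leukaemia oncogene BCR-ABL1. In 3 arrays the cells had received Cre recombinase, which deletes the floxed gene, and in 3 an empty vector (EV); the floxed alleles and BCR-ABL1 are common to both groups, and the labels call the EV genotype wild type. No array held Cre in cells without floxed alleles, so an effect of Cre itself cannot be told apart from loss of PP2A. The labels number the arrays as repeats and name no separate cultures or mice. The p-values therefore reflect array-to-array spread that may be technical, and the number of arrays limits the precision.

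Serine is built from the glycolytic intermediate 3-phosphoglycerate by Phgdh, Psat1 and Psph in turn. The serine hydroxymethyltransferases Shmt1 and Shmt2 then pass a carbon unit from serine to tetrahydrofolate, leaving glycine. In mitochondria this unit is oxidised by Mthfd2 and released as formate by Mthfd1l, and in the cytosol Mthfd1 reloads formate onto folate for purine and thymidylate synthesis. Aldh1l1 in the cytosol and Aldh1l2 in mitochondria burn the unit to CO2 while making NADPH. Proliferating lymphoid cells draw on this pathway for nucleotides and for reducing power, and the series is concerned with redox control and survival in transformed pre-B cells.

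Of 9 pre-B markers measured, Rag1, of the V(D)J recombinase, averaged 6.72 ± 0.25 in Cre cells and 8.82 ± 0.08 in EV cells (SD, n = 3 each) and fell by 2.09 on the log2 scale (limma adjusted p = 0.000155). The other 8 averaged between 10.15 and 12.04 in both groups and did not pass the test. Thus 1 of the 9 passed, beside 3.49% of all genes. An unadjusted limma p below 0.05 was found for 3 of the 9, against 16.1% of all genes. The groups did not overlap for 5 of the 9, against 22.5% of all genes. Rag1, Ebf1 and Il7r were lower in Cre cells, and Cd79a and Pax5 were higher. Ebf1 differed by -0.24 (limma adjusted p = 0.0865). Of 32 markers of T, myeloid, erythroid and stromal cells, 28 averaged below the array medians in both groups, the exceptions being Cd2, Pecam1, Col1a1 and Col1a2. Of the 32, 1 passed, beside 3.49% of all genes. It was Cd2, a T cell marker that mouse B lineage cells also express. Cd2 averaged 9.40 in Cre cells and 9.85 in EV cells and fell by 0.44 (limma adjusted p = 0.0240). Pecam1 averaged 7.24 in Cre cells and 6.95 in EV cells without overlap and did not pass (limma adjusted p = 0.0837). The part of these markers in the results was not tested. Ppp2r1a read 7.12, 6.98 and 6.92 in Cre arrays, against 9.06, 9.05 and 9.06 in EV arrays. In these bulk samples, fewer cells expressing a gene and less RNA per cell cannot be told apart.

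None of the 10 enzymes passed the test in Cre against EV cells (limma, Benjamini-Hochberg adjusted p below 0.05 over 19733 genes), and at an unadjusted p below 0.05 there was 1, Mthfd1l. Over all genes 3.49% passed and 16.1% had an unadjusted p below 0.05, so the share among the enzymes lies near the background. The changes, given throughout as Cre minus EV, ran from -0.27 for Mthfd1l to 0.10 for Psat1 on the log2 scale. The median change of the 10 was -0.13, beside -0.003 over all genes. Of the 10, 8 had a change below 0, against 50.9% of all genes. For 2 of the 10, Mthfd1 and Mthfd1l, all Cre values lay below all EV values, against 12.2% of all genes; 22.5% of all genes had no overlap in either direction.

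**Figure D1:**
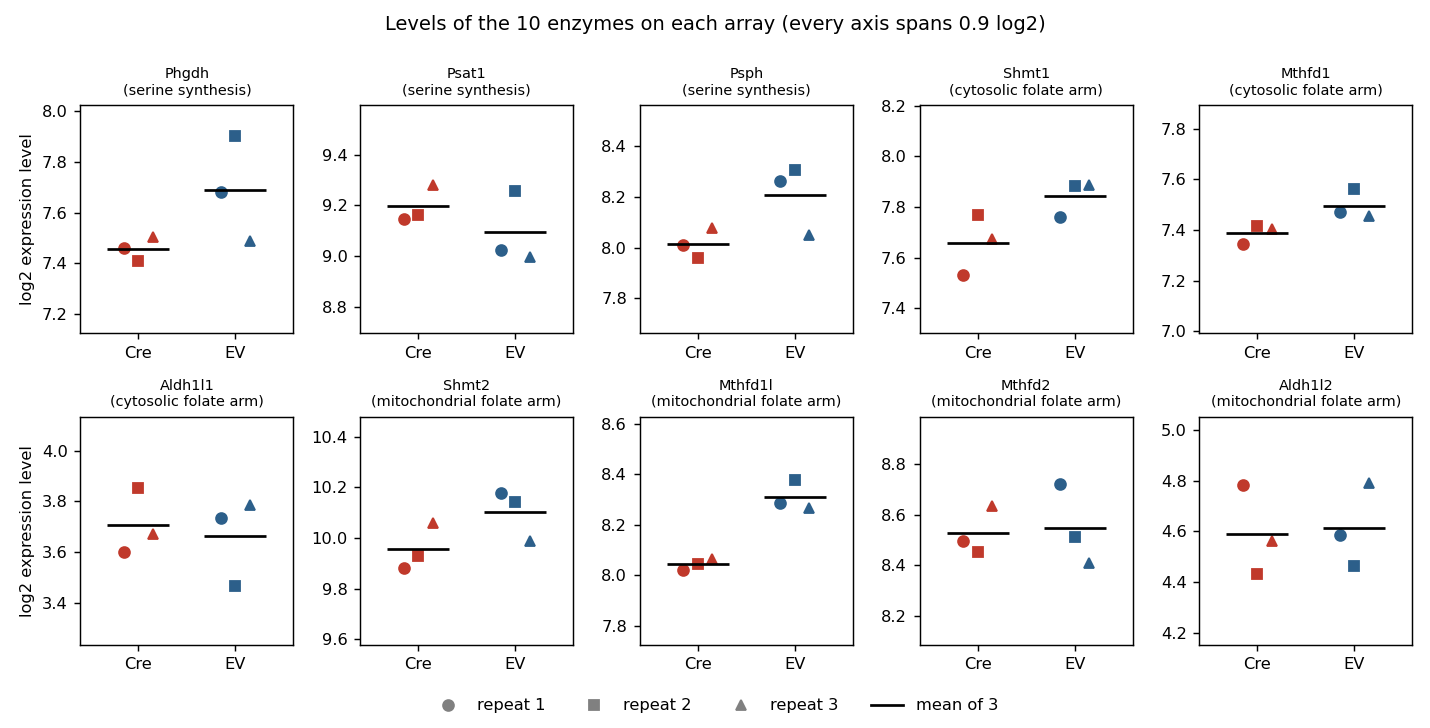
Log2 expression level of each of the 10 enzymes on every array, with Cre arrays in red on the left and EV arrays in blue on the right of each panel; marker shape gives the repeat number and the bar the mean of 3 arrays, and every vertical axis spans the same 0.9 log2 units. The Cre and EV points are separated for Mthfd1 and Mthfd1l and overlap for the other 8 enzymes.

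The outer enzymes of serine synthesis were lower on average in Cre cells and the middle one was higher, all within overlapping ranges. Phgdh (probe set 10500529, chromosome 3), the dehydrogenase that commits 3-phosphoglycerate to serine, had levels of 7.46, 7.41 and 7.51 in Cre arrays, against 7.68, 7.90 and 7.49 in EV arrays. EV repeat 3 lay inside the Cre range and EV repeat 2 stood above all others. The change was -0.23 (SE 0.11; 95% interval -0.48 to 0.01; limma adjusted p = 0.341), and it depended on single EV arrays: it was -0.33 without EV replicate 3 and -0.13 without EV replicate 2, with an adjusted p of 0.159 and 0.576 in limma. A further probe set that Phgdh shares with the predicted gene Gm6756 read 8.03, 8.10 and 8.17 in Cre arrays, against 8.27, 8.44 and 8.25 in EV arrays. Its groups did not overlap, and its change of -0.22 (SE 0.08) did not pass when all 25006 probe sets were tested (limma adjusted p = 0.210).

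Psat1 (probe set 10466410, chromosome 19), the aminotransferase that adds the nitrogen of serine, had levels of 9.15, 9.16 and 9.28 in Cre arrays, against 9.03, 9.26 and 8.998 in EV arrays. The Cre values lay above EV repeats 1 and 3, and EV repeat 2 fell within them, with a change of 0.10 (SE 0.09; 95% interval -0.10 to 0.31; limma adjusted p = 0.642). That change was 0.18 without EV replicate 2, 0.06 without EV replicate 3 or Cre replicate 3, and 0.07 without EV replicate 1. Psph (probe set 10534075, chromosome 5), the phosphatase that releases free serine, had levels of 8.01, 7.96 and 8.08 in Cre arrays, against 8.26, 8.31 and 8.05 in EV arrays. Here EV repeat 3 again lay within the Cre range, and the change was -0.19 (SE 0.08; 95% interval -0.39 to 0.01; limma adjusted p = 0.326). The mean change of these 3 serine-making enzymes was -0.11.

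In the cytosolic folate arm, both well expressed enzymes were lower in Cre cells without passing the test. Shmt1 (probe set 10386604, chromosome 11), the cytosolic hydroxymethyltransferase, had levels of 7.53, 7.77 and 7.68 in Cre arrays, against 7.76, 7.88 and 7.89 in EV arrays. The groups overlapped only through Cre repeat 2 and EV repeat 1, and the change was -0.19 (SE 0.08; 95% interval -0.38 to 0.004; limma adjusted p = 0.322). Mthfd1 (probe set 10396610, chromosome 12), which joins the synthetase, cyclohydrolase and dehydrogenase activities in a single cytosolic protein, had levels of 7.35, 7.42 and 7.40 in Cre arrays, against 7.47, 7.56 and 7.46 in EV arrays. All Cre values lay below all EV values by a narrow gap, and the change was small, at -0.11 (SE 0.06; 95% interval -0.26 to 0.04; limma adjusted p = 0.484).

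Aldh1l1 (probe set 10540034, chromosome 6), the cytosolic formyltetrahydrofolate dehydrogenase, was dim in both groups, at 3.60, 3.85 and 3.67 in Cre arrays and 3.74, 3.47 and 3.79 in EV arrays. These values lie below the array medians of 5.22 to 5.27, where a log2 change can understate the fold, and they overlap. Its change was 0.05 (SE 0.11; limma adjusted p = 0.893).

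Of the mitochondrial enzymes, Mthfd1l stood nearest to the threshold. Mthfd1l (probe set 10367641, chromosome 10), the ligase that releases formate for export to the cytosol, had levels of 8.02, 8.05 and 8.06 in Cre arrays, against 8.29, 8.38 and 8.27 in EV arrays. The groups were clearly separated, and the Cre arrays differed among themselves by less than the EV arrays did. The change was -0.27 (SE 0.06; 95% interval -0.41 to -0.12), and it missed the threshold at a limma adjusted p of 0.0720. It passed when the dimmest 25% of genes were left out (adjusted p = 0.0374) and with limma's trend and robust settings (adjusted p = 0.00536). With any 1 array left out it did not pass either, with a highest adjusted p of 0.203 in limma, and its change lay between -0.29 and -0.23. Those fits hold fewer arrays, and the genes passing over all genes went from 689 to between 362 and 424.

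Shmt2 (probe set 10373202, chromosome 10), the mitochondrial hydroxymethyltransferase, had levels of 9.88, 9.93 and 10.06 in Cre arrays, against 10.18, 10.14 and 9.99 in EV arrays. Cre repeat 3 lay above EV repeat 3, so the groups overlapped, and the change was -0.15 (SE 0.08; 95% interval -0.33 to 0.04; limma adjusted p = 0.444). Mthfd2 (probe set 10545672, chromosome 6), the mitochondrial dehydrogenase and cyclohydrolase that many proliferating cells express strongly, had levels of 8.50, 8.45 and 8.63 in Cre arrays, against 8.72, 8.51 and 8.41 in EV arrays. The ranges coincided almost fully, with a change of -0.02 (SE 0.10; 95% interval -0.24 to 0.20; limma adjusted p = 0.954). Its sign turned with EV replicate 1 left out (0.07) or Cre replicate 2 left out (0.02).

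Aldh1l2 (probe set 10371332, chromosome 10), the mitochondrial formyltetrahydrofolate dehydrogenase, was also below the array medians, at 4.78, 4.43 and 4.56 in Cre arrays and 4.59, 4.47 and 4.79 in EV arrays. The groups overlapped, and the change was -0.02 (SE 0.12; limma adjusted p = 0.954). The signs of the changes of Aldh1l1 and Aldh1l2 also turned with single arrays left out.

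**Figure D2:**
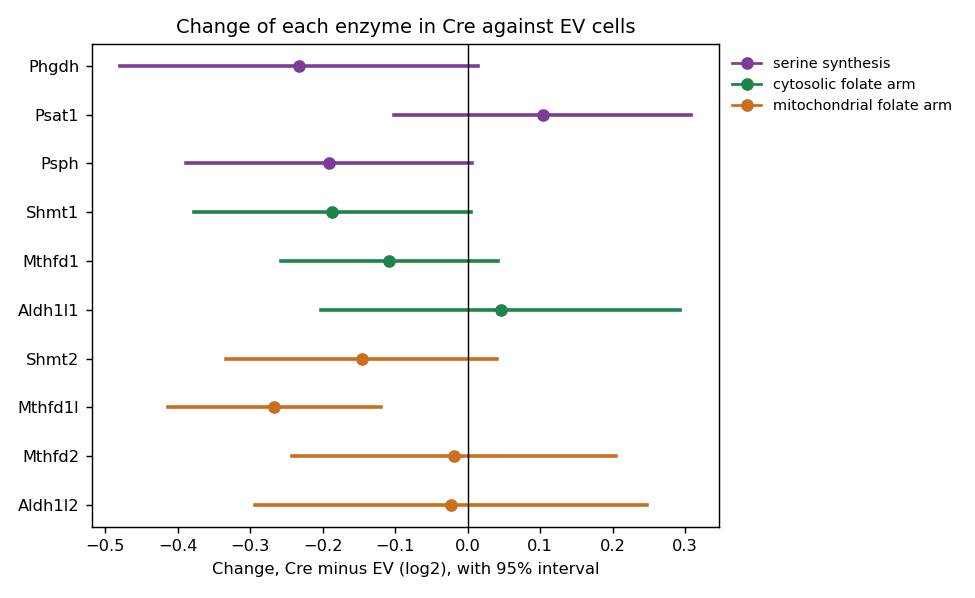
Change of each enzyme, Cre minus EV, on the log2 scale (points) with its 95% interval from the limma fit (lines), coloured by role. The interval of Mthfd1l, from -0.41 to -0.12, is the only one of the 10 that does not include 0; the intervals are not adjusted for the number of genes tested.

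The cytosolic and mitochondrial arms differed little in their response. The mean change was -0.11 for the 4 mitochondrial enzymes and -0.08 for the 3 cytosolic ones. The mean mitochondrial minus mean cytosolic level was 1.64, 1.37 and 1.58 log2 in Cre arrays, against 1.62, 1.57 and 1.49 in EV arrays; since probe sets differ in brightness, only the contrast of this figure between groups can be read. It averaged 1.53 ± 0.14 in Cre cells and 1.56 ± 0.07 in EV cells (SD, n = 3 each), a difference of -0.03 that is smaller than the spread between arrays. Without the dim Aldh1l1 and Aldh1l2, a choice made after seeing the data, the mean change was -0.14 in the mitochondrial arm and -0.15 in the cytosolic arm, and the difference was 0.003. No test was run on these means, because the enzymes were chosen with results of these data known.

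Taken by step, the changes of the isozymes of hydroxymethyl transfer lay closer together than those of Mthfd1l and Mthfd1, which handle formate. Shmt2 minus Shmt1 was 2.35, 2.16 and 2.38 in Cre arrays, against 2.42, 2.26 and 2.10 in EV arrays, overlapping ranges that differed by 0.04. Mthfd1l minus Mthfd1 was 0.68, 0.63 and 0.66 in Cre arrays, against 0.82, 0.81 and 0.81 in EV arrays. All 3 Cre values of this pair lay below the EV values, by 0.16 on average, and it was the only pair without overlap. Mthfd1l and Mthfd1 each had no overlap on their own, as did 22.5% of all genes. The share without overlap among pairs of genes was not computed, so this separation cannot be set against a background. Neither enzyme passed the test, and the 95% intervals of their changes overlap (-0.41 to -0.12 for Mthfd1l and -0.26 to 0.04 for Mthfd1). For Mthfd2 minus Mthfd1 the difference between groups was 0.09 in the opposite direction, at 1.15, 1.03 and 1.23 in Cre arrays against 1.25, 0.95 and 0.95 in EV arrays, and the groups overlapped. Aldh1l2 minus Aldh1l1 differed by -0.07, with an SD of 0.30 in Cre and 0.09 in EV. These differences between isozymes were not tested.

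**Figure D3:**
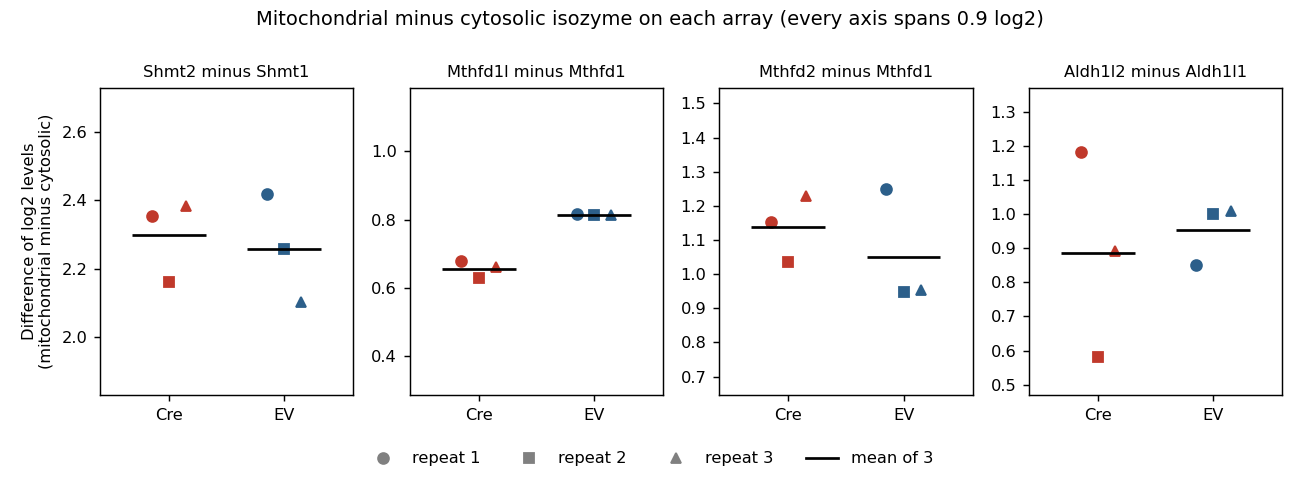
Log2 level of the mitochondrial isozyme minus that of its cytosolic counterpart on each array, Cre on the left and EV on the right of each panel, with the mean of 3 arrays as a bar; every vertical axis spans 0.9 log2 units. The Cre points lie below the EV points for Mthfd1l minus Mthfd1 (means of 0.66 and 0.81) and overlap them in the other 3 panels.

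Several enzymes, not all, had the same array at the end of their range. EV repeat 3 was the lowest EV array for 7 of the 10 enzymes, against 28.3% of all genes, and the highest for the other 3 (Shmt1, Aldh1l1 and Aldh1l2), against 36.8%; Cre repeat 3 was the highest Cre array for 6 of the 10, against 34.9%. In a list of 26 measured genes that joins regulators of the serine pathway with targets of ATF4, the stress-induced transcription factor known to drive serine synthesis genes, EV repeat 3 was the lowest EV array for 17 and Cre repeat 3 the highest Cre array for 13. The part of this order in the changes above was not tested. Leaving out the lowest EV array lowers a change by construction, and leaving out the highest raises it. Without EV replicate 3 the changes were -0.33 for Phgdh and -0.27 for Psph, where it is the lowest. For Shmt1, where it is the highest, the change was -0.16. These values therefore cannot show what part the order has.

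Of the 2 transcription factors best known for driving this pathway, Myc fell in Cre cells and Atf4 did not pass the test. Myc, a transcription factor that raises Shmt2 and Mthfd2 in many cell types, had levels of 10.21, 10.02 and 10.70 in Cre arrays, against 11.29, 11.25 and 11.40 in EV arrays. It fell by 1.00 on the log2 scale (SE 0.16; limma adjusted p = 0.0167), beside the changes of -0.15 for Shmt2 and -0.02 for Mthfd2. Myc no longer passed when Cre replicate 1 or any single EV replicate (1, 2 or 3) was omitted, with adjusted p up to 0.0662 in limma. Atf4 itself had levels of 9.76, 9.77 and 9.84 in Cre arrays, against 9.78, 9.81 and 9.59 in EV arrays, and differed by 0.06 (SE 0.08; limma adjusted p = 0.767), or by -0.01 without EV replicate 3.

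Of the 26 regulators and ATF4 targets, Myc included, 3 fell and 1 rose, beside 2.14% and 1.35% of all genes. The other 22 did not pass, and the median change of the list was -0.10. An unadjusted limma p below 0.05 was found for 10 of the 26, against 16.1% of all genes. The groups did not overlap for 10 of the 26, against 22.5% of all genes. Stc2, a stanniocalcin secreted under stress, read 6.22 ± 0.17 in Cre cells and 6.97 ± 0.11 in EV cells (SD, n = 3 each), and fell by 0.75 (SE 0.10; limma adjusted p = 0.00791). Atf5, a factor related to ATF4, fell by 0.33 (SE 0.06; adjusted p = 0.0346 in limma), a call lost with each of the 6 arrays left out (highest 0.119) and after repeated quantile normalization (0.0522). Ddit4, an inhibitor of mTORC1, rose by 0.49 (SE 0.08; adjusted p = 0.0221 in limma). Its call held only without EV replicate 1 among the 6 fits with an array left out (highest 0.0897).

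In 6 lists of connected genes, the regulators above included, 2 of 80 measured genes rose, 6 fell and 72 did not pass, beside 1.35% and 2.14% of all genes; the lists were drawn up with earlier results known. Of 15 genes of folate uptake, reduction and use, 1 rose and 1 fell. Sardh, the mitochondrial sarcosine dehydrogenase that hands a carbon unit to folate, had levels of 6.31, 6.13 and 6.12 in Cre arrays, against 4.78, 4.95 and 5.22 in EV arrays. The EV mean of 4.98 lies a little below the array medians of 5.22 to 5.27. A log2 change can understate the fold at low levels, and whether it does so here was not tested. Sardh rose by 1.21 (SE 0.12; limma adjusted p = 0.00172) and passed under all 14 alternatives.

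Slc19a1, the reduced folate carrier of the plasma membrane, had levels of 7.86, 7.76 and 7.75 in Cre arrays, against 8.11, 8.14 and 8.32 in EV arrays. The groups did not overlap, and it fell by 0.40 (SE 0.08; limma adjusted p = 0.0389), a call lost with each of the 6 arrays left out (highest 0.135). Fpgs, which adds the glutamate chain that keeps folates in the cell, had the next smallest p of the list: it averaged 6.21 ± 0.10 in Cre cells and 6.51 ± 0.17 in EV cells (SD, n = 3 each), without overlap, and differed by -0.30 (SE 0.10; limma adjusted p = 0.179). Tyms, the thymidylate synthase, differed by 0.05 (SE 0.07), Gart, a purine enzyme that uses formyl folate, by -0.04 (SE 0.06), and Slc25a32, the mitochondrial folate carrier, by -0.08 (SE 0.08). Fpgs, Tyms, Gart and Slc25a32 were named after their values were seen, and none passed; the lowest limma adjusted p of the last 3 was 0.693.

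Of 13 serine and glycine transporters, 1 fell and 0 rose, beside 2.14% and 1.35% of all genes. Slc1a5, the plasma membrane carrier ASCT2 for glutamine, serine and other neutral amino acids, had levels of 10.12, 10.16 and 10.21 in Cre arrays, against 10.78, 10.88 and 10.91 in EV arrays. It fell by 0.69 (SE 0.07; limma adjusted p = 0.00172) and passed under all 14 alternatives. Sfxn1, the mitochondrial serine transporter, named after its value was seen, differed by 0.04 (SE 0.06; limma adjusted p = 0.841).

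Of 11 genes of the methionine cycle and transsulfuration, 1 fell and 0 rose, beside 2.14% and 1.35% of all genes. Cth, the cystathionine gamma-lyase that yields cysteine from serine-derived cystathionine, had levels of 7.43, 7.31 and 7.31 in Cre arrays, against 8.17, 8.14 and 7.81 in EV arrays. It fell by 0.69 (SE 0.11; limma adjusted p = 0.0139), which no longer passed when Cre replicate 2 or 3, or EV replicate 1 or 2, was omitted (highest 0.0621). None of the 4 glycine cleavage genes passed: Gldc, the decarboxylase of that system, averaged 7.79 ± 0.14 in Cre cells and 8.16 ± 0.10 in EV cells (SD, n = 3 each), without overlap, and differed by -0.38 (SE 0.09; limma adjusted p = 0.0772). Like Mthfd1l, Gldc passed when the dimmest 25% of genes were left out (limma adjusted p = 0.0456) and with trend and robust settings (0.00544). None of 11 genes of serine use and breakdown passed either, and 1 had an unadjusted p below 0.05 in limma, against 16.1% of all genes. That gene, Serinc1, a membrane protein named for serine incorporation into lipids, differed by -0.16 (SE 0.06; limma adjusted p = 0.262).

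**Figure D4:**
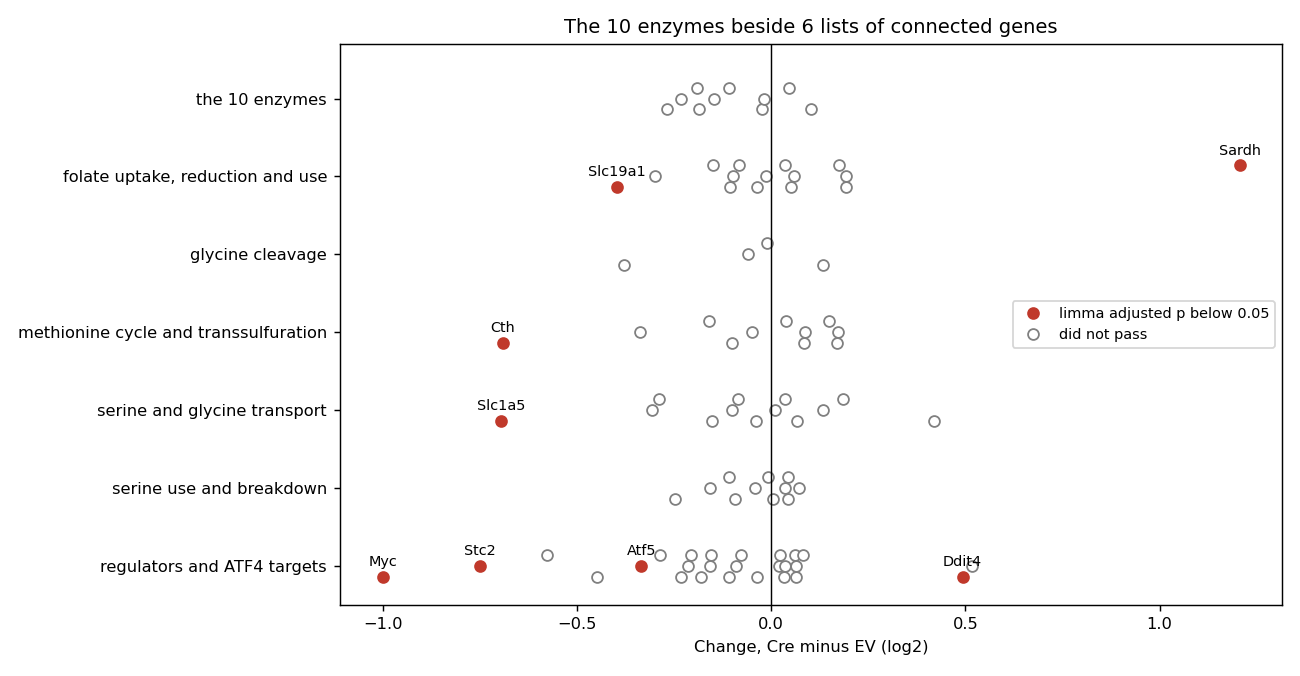
Change of each measured gene, Cre minus EV on the log2 scale, for the 10 enzymes (top row) and 6 lists of connected genes; filled red points passed at a limma adjusted p below 0.05 and are named, and open points did not pass. The 10 enzymes lie between -0.27 and 0.10, and the points beyond 0.6 in either direction are Sardh on the right and Myc, Stc2, Slc1a5 and Cth on the left.

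Promoter windows of the enzymes were read for the letters of 2 regulators' sites. RefSeq windows on GRCm38.p6, from 250 bases before to 50 bases after a transcript start, matched 9 of the 10 enzymes with 10 windows. The letters TGATGNAA, part of the C/EBP-ATF response element, and the E-box CACGTG, which Myc binds, were searched on both strands; neither pattern contains the other. Neither was found in any of the 10 windows, while 3.97% and 7.15% of all 32851 windows hold them. That says only that these letters are not in these windows. The windows of the isozyme pair Shmt1 and Shmt2 are shown because both enzymes catalyse the same step in different compartments. The Shmt1 window lies at chr11:60811216-60811515 and the Shmt2 window at chr10:127522395-127522694, both on the minus strand, written 5′ to 3′ with the bases from the start onward in capitals.
Shmt1: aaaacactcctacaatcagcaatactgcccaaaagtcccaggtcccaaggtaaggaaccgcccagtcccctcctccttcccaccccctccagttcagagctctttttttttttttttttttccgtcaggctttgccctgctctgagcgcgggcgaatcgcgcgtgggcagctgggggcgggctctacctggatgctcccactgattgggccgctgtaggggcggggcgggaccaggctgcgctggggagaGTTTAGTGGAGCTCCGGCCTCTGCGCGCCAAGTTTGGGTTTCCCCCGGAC
Shmt2: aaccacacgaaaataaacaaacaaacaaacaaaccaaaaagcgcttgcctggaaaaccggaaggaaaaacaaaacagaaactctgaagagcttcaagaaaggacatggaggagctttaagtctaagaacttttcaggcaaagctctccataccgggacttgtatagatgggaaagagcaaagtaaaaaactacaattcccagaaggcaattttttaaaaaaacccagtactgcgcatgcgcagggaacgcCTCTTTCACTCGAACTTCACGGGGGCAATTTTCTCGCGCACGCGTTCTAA
The Shmt1 window has 60.7% G and C with 17 CG dinucleotides, and the Shmt2 window 42.7% with 13, beside medians of 52.7% and 7 over all windows.

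The genes whose levels over the 6 arrays were most like those of Mthfd1l, the enzyme with the smallest p, were Cluap1, Nmrk1 and Eif3f. Pearson's r was 0.996, 0.996 and 0.994 over 6 arrays that share the split into Cre and EV, and 766 genes had r above 0.9. Of these 3 genes, Nmrk1, a nicotinamide riboside kinase, fell by 0.56 (SE 0.08; limma adjusted p = 0.00976), while Cluap1 and Eif3f differed by -0.23 and -0.24 and did not pass.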

How the data were processed

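The authors deposited log2 levels for each probe set, which RMA produced, per the submitters' processing notes; its version is not stated there. The 6 array medians were 5.22 to 5.27, within a range of 1.22 to 13.47. RMA sets the arrays to nearly the same distribution, so changes are relative to the other genes. Of 25006 probe sets, 21467 had 1 gene symbol in the platform annotation, 1521 had several and 2018 none. The brightest probe set was kept for 931 genes with several, leaving 19733 genes, of which 19658 matched a RefSeq gene (GRCm38.p6) by identifier.

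Cre and EV were compared over all 19733 genes by limma 3.58.1 under R 4.3.3, using lmFit and eBayes without block or filter, and p-values were adjusted by Benjamini-Hochberg; a gene passed at an adjusted p below 0.05. Intervals are 95% intervals of the moderated fit. The fit was tested on simulated data. Tables and plots used Python 3.11.15, pandas 2.3.3 and matplotlib 3.10.9.

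The enzymes and the 11 gene lists (133 entries, 121 tested) were chosen with earlier results of these data known. Genes named in the text are Ppp2r1a, the 10 enzymes, Myc, Atf4, in each pathway list the passing genes (at most 4, by p) or, failing any, its single gene of lowest p, and the 3 genes most like the enzyme with the smallest p. Fpgs, Tyms, Gart, Slc25a32, Sfxn1, Trib3, Chac1, Asns and the markers were named after their values were seen. Alternatives were a block on repeat number, a second quantile normalization, centring arrays on their medians, dropping the dimmest 25% of genes, trend and robust settings, array weights, the mean of all probe sets of a gene, all probe sets tested, and leaving out each array.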

Additional observations from a re-analysis of the deposited data

How the results depend on the processing

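Over 19733 genes 689 passed. The count was 425 with the repeat number as a block and 1558 with trend and robust settings, and between 362 and 424 with 1 array left out. In the 6 pathway lists 8 genes passed, against 5 with the block, 15 with trend and robust settings, and 3 to 5 with 1 array left out. Among the 10 enzymes the count of 0 became 1, Mthfd1l, with the dimmest 25% of genes left out and with trend and robust settings, and stayed 0 under the other alternatives. Same-numbered arrays showed no shared deviation from the group means (r of 0.009, -0.012 and 0.03). For arrays of unlike number r ran from -0.028 to 0.017. The labels do not say whether the numbers pair the arrays, and these values cannot exclude it. The block took away the calls of Slc19a1, Ddit4 and Atf5 and gave no enzyme one. Gldc passed under the same 2 alternatives as Mthfd1l. The difference between the arms, -0.03, lay between -0.09 and 0.05 with 1 array left out. Among the enzymes and Atf4, signs turned 7 times, each with 1 array left out and none near the threshold: the changes then ran from -0.053 to 0.107 for Aldh1l1, from -0.118 to 0.066 for Aldh1l2, from -0.0883 to 0.0677 for Mthfd2 and from -0.0055 to 0.108 for Atf4. The cause of these shifts was not tested, and the fits with an array or the dimmest genes left out also hold fewer arrays or genes. Dim probe sets, Aldh1l1 and Aldh1l2 here, limit what can be read of their changes.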

Other observations

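The ATF4-linked genes Trib3 and Chac1 differed in opposite directions without passing, and Asns differed little; all were named after their values were seen. Trib3, a pseudokinase, read 6.17, 6.18 and 6.37 in Cre arrays, against 7.10, 6.83 and 6.52 in EV arrays, a change of -0.58 (SE 0.14; limma adjusted p = 0.0819). Chac1, which degrades glutathione, read 8.49, 8.70 and 8.66 in Cre arrays, against 8.26, 8.32 and 7.71 in EV arrays, a change of 0.52 (SE 0.16; limma adjusted p = 0.150). The groups of these genes did not overlap, and EV repeat 3 was the lowest EV array for both. Asns, the asparagine synthetase, read 10.35, 10.38 and 10.43 in Cre arrays, against 10.59, 10.57 and 10.33 in EV arrays, overlapping ranges with a change of -0.11 (SE 0.08; limma adjusted p = 0.607), with EV repeat 3 again the lowest EV array.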
